A study of Mus musculus with 24 samples.

Results

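The genes described here encode the ubiquitin-conjugating E2 enzymes of the mouse. They were taken as every gene of the count table whose symbol starts with Ube2 in the GENCODE annotation of GRCm38, leaving out names that hold -ps, which gave 40 genes of 54232 in the table. Of these, 37 are annotated as protein-coding. Ube2d4 and Ube2nl are annotated as processed pseudogenes, Ube2uos as an antisense RNA gene, and Ube2cbp carries the prefix but encodes an E2-binding protein.

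Ubiquitin is attached to proteins by a relay in which an E1 enzyme activates it, an E2 enzyme carries it on a cysteine and an E3 ligase brings the E2 to the substrate. The E2 largely sets which lysine of ubiquitin is used to build a chain, and so whether the substrate is sent to the proteasome, drawn into a signalling complex or marked on chromatin. A few E2 enzymes carry NEDD8 or ISG15 instead, and in fat cells the system turns over proteins of insulin signalling, lipid storage and the adipocyte transcription programme.

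RNA from adipose tissue, named visceral in the study, was sequenced from 24 male C57BL6 mice, 6 in each of 4 groups. The description of the series gives an age of 10 weeks. The study's methods give a range of ages that begins at 10 weeks, for the mice as purchased. The age at sampling was thus not settled, and the time after surgery was not given in the sources used here. All mice received a lentivirus into the peritoneal cavity in which the adiponectin promoter, an adipocyte promoter, controlled either NaKtide or green fluorescent protein (GFP). In the study's methods NaKtide is joined to GFP by a self-cleaving 2A peptide. NaKtide is a peptide derived from the Na,K-ATPase that was designed to block its signalling through Src. The groups are Control (sham operation, GFP), NaKtide (sham operation, NaKtide), PNx (5/6 nephrectomy, the removal of the right kidney after ligation of the poles of the left, with GFP) and PNx+NaKtide (5/6 nephrectomy, NaKtide). As the tissue is a mixture of cells, fewer cells of a type and less RNA per cell cannot be told apart.

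Libraries held 679250 to 2979505 counts, and a count of 0 allowed up to 3 counts, which is 1.01 CPM (counts scaled by the size of the library) in the deepest library and 4.42 CPM in the shallowest, for counting error only. The adipocyte markers Adipoq, Plin1 and Fabp4 had counts in every library, with Adipoq at 2.5 to 345 CPM and a median of 29.9 CPM. Of the same list, Cd36, Retn, Cidec and Lep were at 0 in some libraries. The list did not move as one. In PNx replicates 1, 2 and 3, Adipoq was at 88.6 to 141 CPM, against at most 56.2 CPM in Control. Plin1 was at 0.757 to 1.97 CPM there, against at least 8.28 CPM in Control. The summed level of 14 epididymis genes nevertheless exceeded that of 15 adipocyte genes in 20 of 24 libraries, and that of 15 testis germ cell genes did so in 8. PNx replicate 6 and NaKtide replicate 6 stood apart with adipocyte sums of 8145 and 6052 CPM, against at most 1335 CPM elsewhere. NaKtide replicate 6 also held 5664 CPM of 10 skeletal muscle genes, where no other library exceeded 113 CPM. PNx replicates 1, 2 and 3 had the highest germ cell sums, from 1247 to 1412 CPM, while those of PNx replicates 4 and 5 were 206 and 200 CPM. The part of these cell types in the results below was not tested except where a value is given.

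**Figure D1:**
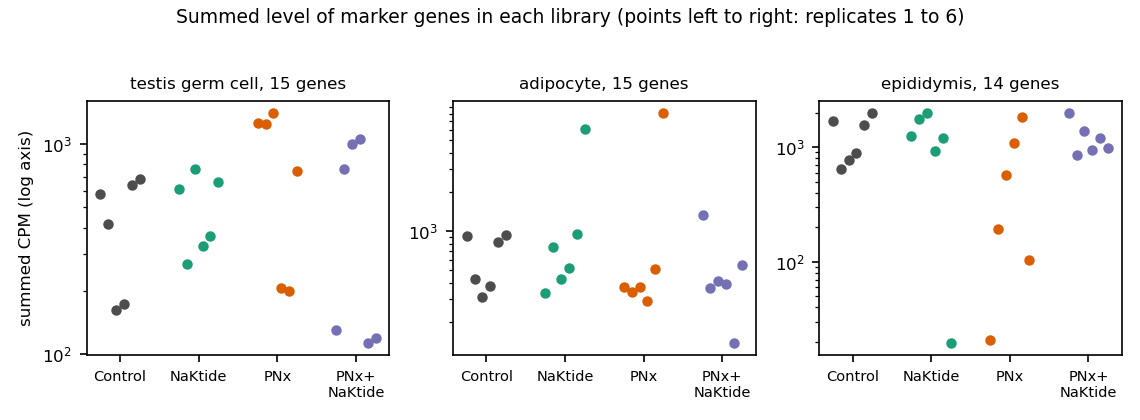
Summed level of the testis germ cell, adipocyte and epididymis genes in each library, on a log axis of CPM, by group and with replicates 1 to 6 from left to right. PNx replicates 1, 2 and 3 are at 1247 to 1412 CPM for germ cell genes, and PNx replicate 6 and NaKtide replicate 6 are at 8145 and 6052 CPM for adipocyte genes.

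To show the control regions of the genes on which the results turn, the 250 bases before the start site are printed for Ube2b, Ube2n and Ube2d2b, which were higher in PNx at an unadjusted p under 0.05, for Ube2z, which was lower, and for Ube2c, which had the widest range. They are RefSeq sequences of GRCm38.p6, given 5′ to 3′ on the strand of the gene. Capitals mark the motifs that were searched on both strands. The first was TGACGTCA, the cAMP response element (CRE). Its core TGACG also lies within the CRE. The other motifs were the GC box, spelled GGGCGG, the CCAAT box, spelled by its name, and the TATA box, spelled TATAAA. Ube2b lies at chr11:52000787-52001036 on the minus strand, Ube2n at chr10:95514912-95515161 on the plus strand, Ube2d2b at chr5:107829912-107830161 on the plus strand, Ube2z at chr11:96065365-96065614 on the minus strand and Ube2c at chr2:164769679-164769928 on the plus strand.
Ube2b: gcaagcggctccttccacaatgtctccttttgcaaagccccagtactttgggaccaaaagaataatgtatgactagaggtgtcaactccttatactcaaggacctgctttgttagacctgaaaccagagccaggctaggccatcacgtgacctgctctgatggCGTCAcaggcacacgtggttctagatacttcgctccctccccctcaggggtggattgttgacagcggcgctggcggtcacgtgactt
Ube2n: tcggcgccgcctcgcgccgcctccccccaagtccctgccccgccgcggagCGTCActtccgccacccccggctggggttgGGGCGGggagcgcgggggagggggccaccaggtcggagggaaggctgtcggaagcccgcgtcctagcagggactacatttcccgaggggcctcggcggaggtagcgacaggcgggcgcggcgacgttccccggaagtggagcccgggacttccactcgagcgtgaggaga
Ube2d2b: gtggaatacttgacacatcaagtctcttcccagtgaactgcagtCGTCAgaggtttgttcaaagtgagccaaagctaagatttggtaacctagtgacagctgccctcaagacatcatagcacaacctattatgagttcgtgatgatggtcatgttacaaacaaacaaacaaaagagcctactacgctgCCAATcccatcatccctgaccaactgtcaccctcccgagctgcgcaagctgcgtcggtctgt
Ube2z: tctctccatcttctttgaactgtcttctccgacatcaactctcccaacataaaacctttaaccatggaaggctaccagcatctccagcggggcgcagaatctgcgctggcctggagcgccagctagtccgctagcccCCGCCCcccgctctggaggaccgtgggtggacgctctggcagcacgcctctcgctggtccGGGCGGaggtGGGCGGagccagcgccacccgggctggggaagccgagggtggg
Ube2c: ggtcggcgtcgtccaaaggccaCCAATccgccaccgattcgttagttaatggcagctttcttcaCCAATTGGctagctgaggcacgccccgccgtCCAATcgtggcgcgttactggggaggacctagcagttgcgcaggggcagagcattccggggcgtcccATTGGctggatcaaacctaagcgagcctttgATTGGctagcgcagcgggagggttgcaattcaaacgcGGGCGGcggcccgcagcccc
Ube2b holds 1 CRE core and none of the other motifs. Ube2n holds 1 CRE core and 1 GC box, Ube2d2b holds 1 CRE core and 1 CCAAT, and Ube2z holds 3 GC boxes. Ube2c holds 6 matches to CCAAT, of which one pair overlaps on opposite strands, and 1 GC box. A window was found for 31 of the 40 genes. Of these, 18 held a GC box (58.1%, against 32.7% of the 32851 windows of all genes), 10 held CCAAT (32.3% against 33.8%), 8 held the CRE core (25.8% against 17.8%), 3 held TATAAA (9.68% against 12.4%) and 1, Ube2h, held the full CRE (3.23% against 1.55%). The members also differ in base composition, from 36% G and C before Ube2dnl2 to 80.4% before Ube2r2, and the median over all windows was 52.4%. A match of letters is a description and not a site of binding.

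The E2 genes together held 57798 counts, and 35 of the 40 had more than the 10 counts over the 24 libraries that were required for a test. The 5 that did not were Ube2cbp (8 counts), Ube2dnl1 (7 counts), Ube2uos (5 counts), Ube2dnl2 (3 counts) and Ube2d4 (1 count). The counts were very unequal, since Ube2c with 30078 counts and Ube2s with 10342 counts held 69.9% of the total. The median gene tested had 295 counts over all libraries, so most values below rest on few reads per library.

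Per length, the highest level in Control was that of Ube2s, which extends K11-linked chains for the anaphase promoting complex, at 48.9 ± 12.9 FPKM (SD, n = 6), in fragments scaled by exon length and library depth. Ube2z, which charges ubiquitin and FAT10 from the E1 enzyme Uba6, followed at 12.4 ± 1.31 FPKM, apart from Ube2s by more than the SD of either. Ube2c, the partner of the anaphase promoting complex that starts its chains, was at 8.95 ± 10.0 FPKM. Ube2m, which carries NEDD8, was at 8.62 ± 0.83 FPKM, so that the order of Ube2c and Ube2m lies within their spread. Ube2q2 at 6.02 ± 1.38 FPKM and Ube2g1 at 3.66 ± 1.27 FPKM came next. At the low end of the tested genes were Ube2v2 at 0.069 ± 0.077 FPKM, Ube2v1 at 0.12 ± 0.15 FPKM and Ube2ql1 at 0.13 ± 0.17 FPKM, whose order was not resolved.

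These levels depend on the strand of the counts. The libraries were made with a stranded kit, and mt-Nd6, the mRNA gene on the minus strand of the mitochondrial genome, held 403137 counts per kilobase against 5968 for the 12 mRNA genes on its plus strand, a ratio of 67.6. In mouse tissues the plus-strand mRNAs are known as the more abundant, so this order is the reverse of the usual one and is what counting on the strand opposite to the annotation would give. The sources used here do not name the strand setting of the counting. All levels are those deposited under each gene's name, and whether they are sense reads of that gene could not be settled for any E2 gene. Exons of 7 E2 genes overlap an exon transcribed the other way, and there the reads of both genes cannot be told apart. Ube2l3 (471 counts) shares 1670 bases with Ydjc (16294 counts), Ube2e1 (489 counts) shares 718 bases with Nkiras1 (11454 counts) and Ube2w (168 counts) shares 253 bases with Gm38342 (2083 counts). Ube2s shares 183 bases with the ribosomal protein gene Rpl28 (4103 counts), Ube2d3 (2988 counts) shares 198 bases with 4930539J05Rik (1642 counts) and Ube2v1 (23 counts) shares 208 bases with Gm11476 (188 counts). None of the shared bases of Ube2s, Ube2d3 and Ube2v1 are coding bases. The other 28 of the 35 tested genes have no annotated overlap, which does not settle the strand of their reads. Over the whole table, 31.1% of the genes tested have such an overlap, and genes with one hold 79.9% of all counts.

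The overlap of Ube2c is with a muscle gene. On chr2:164777190-164778227 of GRCm38, 592 exon bases of its transcript Ube2c-201 lie opposite Tnnc2, the fast skeletal muscle troponin C gene on the minus strand, and 477 of these are coding bases of Tnnc2. They make up 74% of the exon bases of Tnnc2 but belong to only 1 of the 2 annotated Ube2c transcripts, in which 32 of them are coding. Ube2c had 30078 counts and Tnnc2 had 319, which is 94.3-fold fewer. NaKtide replicate 6 alone held 26585 of the Ube2c counts (88.4%).

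In CPM, Ube2c was at 3.55 to 70.9 in Control (median 9.59), at 7.87 to 18.2 in NaKtide replicates 1 to 5, and at 17188 in NaKtide replicate 6. It was at 7.07 to 230 in PNx (median 17.8) and at 5.43 to 434 in PNx+NaKtide (median 193). Each group thus held libraries of quite different level, and all 4 ranges overlapped. The log2 fold change was 1.40 ± 1.61 in PNx against Control (adjusted p = 0.58, edgeR), or -1.31 without PNx replicates 1, 2 and 3, and 1.49 ± 1.60 in PNx+NaKtide against PNx (adjusted p = 0.62). In NaKtide replicate 6, Tnnc2 was at 185 CPM and the muscle actin gene Acta1 at 323 CPM, the highest values of both. PNx+NaKtide replicates 2, 3 and 4 had 378 to 434 CPM of Ube2c with skeletal muscle sums of 50.7 to 59.1 CPM, within the range of the other libraries. Single muscle genes differed there. Acta1 was at 3.07 to 5.02 CPM, against at most 2.64 CPM in the remaining libraries other than NaKtide replicate 6. Tnnc2 was at 1.11 to 3.07 CPM, and Myh4 and Tnnt3 were at 0 to 0.557 CPM. The part of muscle in these Ube2c levels was not tested. The 7 proliferation genes, which mark dividing cells as Ube2c does, summed to 10.3 CPM in NaKtide replicate 6 and to 23.6 to 29.2 CPM in these 3 libraries.

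**Figure D2:**
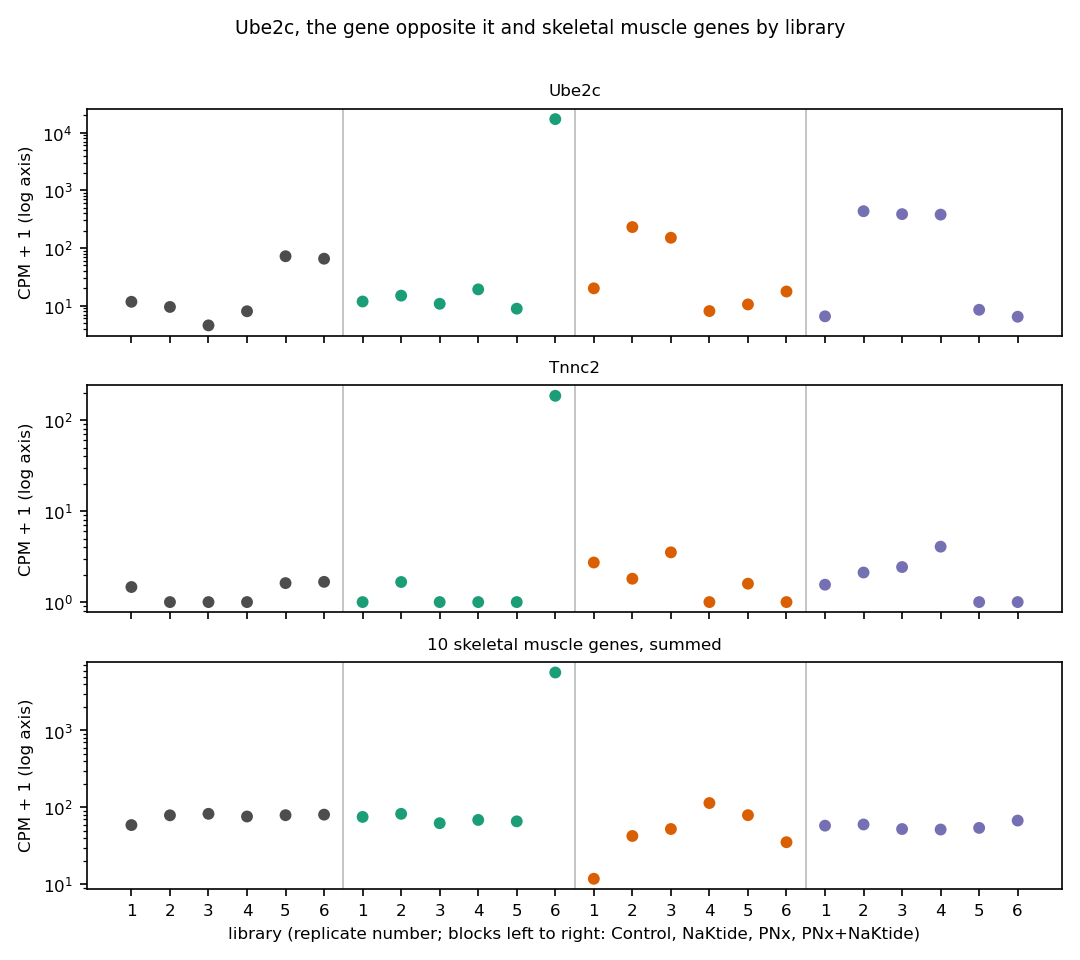
Level of Ube2c, of Tnnc2 on the opposite strand and of 10 skeletal muscle genes summed, in each of the 24 libraries, as CPM + 1 on a log axis. NaKtide replicate 6 is highest in all 3 panels. The Ube2c levels of 378 to 434 CPM in PNx+NaKtide replicates 2, 3 and 4 come with Tnnc2 at 1.11 to 3.07 CPM and without a raised muscle sum.

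The comparison of PNx with Control asks what renal failure changes in fat. None of the 35 E2 genes passed an adjusted p of 0.1 in the edgeR quasi-likelihood test, in which 0.0766% of the 26116 genes tested did. At an unadjusted p under 0.05 there were 10 E2 genes (28.6%, against 25.4% of all genes), of which 9 were higher (25.7% against 18.5%) and 1, Ube2z, was lower (2.86% against 6.88%). The median log2 fold change was 1.01 for the E2 genes and 0.36 for all genes. Of the E2 genes, 27 were higher and 8 lower, where 60.7% of all genes were higher. No E2 gene had PNx and Control ranges that did not overlap, as 0.486% of all genes had. Other scalings move the zero line, since the median of all genes was 0.76 with DESeq2 size factors, where the E2 median was 1.42 and 4 genes, Ube2a, Ube2m and Ube2q1 among them, turned from lower to higher. DESeq2 called 20 of 32 E2 genes (62.5%, 19 higher and 1 lower, against 34.9% of all genes), and limma voom called 20 of 35 (57.1%, 16 higher and 4 lower, against 63.8%). With edgeR, 14 of 35 E2 genes passed once PNx replicate 4 was left out (40%, against 33.2% of all genes). Omitting PNx replicate 5 gave 8 of 35 (22.9% against 23.2%), and omitting PNx replicate 6 gave 4 of 34 (11.8% against 14.8%), so that these shares were near or below that of all genes.

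**Figure D3:**
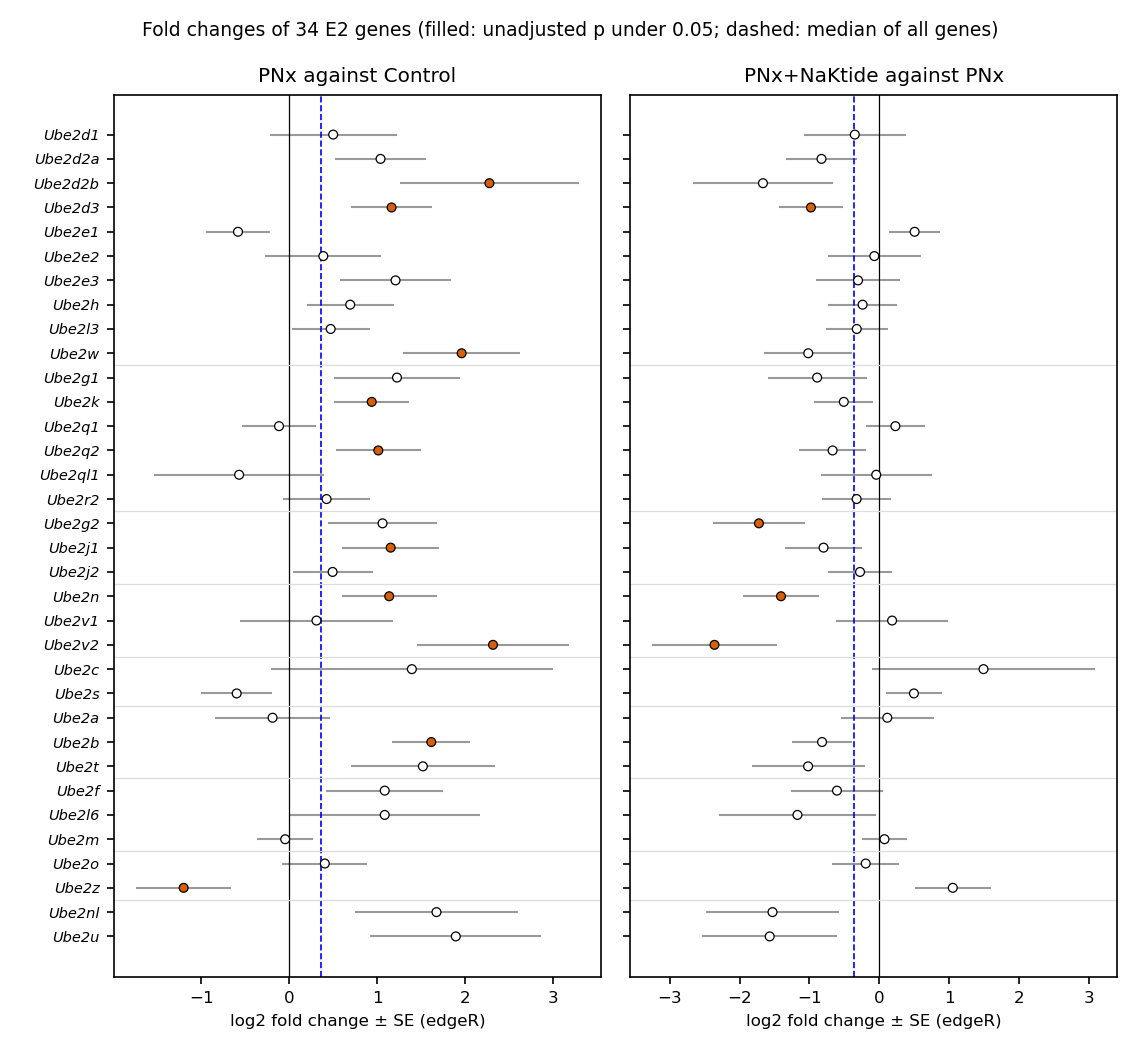
The log2 fold change with its standard error of 34 of the E2 genes tested, by edgeR, in PNx against Control and in PNx+NaKtide against PNx, with genes in order of their role. Filled points had an unadjusted p under 0.05, 10 on the left and 4 on the right, and the dashed lines mark the median of all genes at 0.36 and -0.37.

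The gene of lowest p was Ube2b, the Rad6 homologue that ubiquitinates histone H2B and the clamp protein PCNA and that is needed for sperm formation. Its level was 0.58 to 4.68 CPM in Control (median 3.29), 4.84 to 9.70 CPM in NaKtide (median 5.46), 3.93 to 16.6 CPM in PNx (median 8.34) and 4.29 to 6.09 CPM in PNx+NaKtide (median 5.22). All 6 PNx libraries were above the Control mean of 2.97 CPM, and 5 of the 6 were above the highest Control library. The log2 fold change was 1.62 ± 0.44 (SE; adjusted p = 0.13, edgeR). It was 1.46 without PNx replicates 1, 2 and 3 and 1.37 without PNx replicate 6 and NaKtide replicate 6 (adjusted p = 0.39 and 0.061), and leaving out PNx replicate 6 alone gave 1.37 with an adjusted p of 0.077. Its X-linked paralogue Ube2a, of near-identical protein, was at 1.34 to 4.08 CPM in Control and at 0.40 to 6.42 CPM in PNx, with a log2 fold change of -0.19 ± 0.65. Ube2t, the E2 of the Fanconi anaemia pathway in the same role group, was at 0 to 1.85 CPM in Control and at 0.38 to 4.79 CPM in PNx.

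Among the 10 genes that start chains or transfer ubiquitin broadly, 3 had an unadjusted p under 0.05, where 25.4% of all genes did, and 9 were higher in PNx, as 60.7% of all genes were, with a median log2 fold change of 0.87. Ube2w, which ubiquitinates the amino terminus of proteins, was at 0 to 3.70 CPM in Control (median 1.2) and at 0.79 to 12.8 CPM in PNx (median 5.17), a log2 fold change of 1.96 ± 0.66 (adjusted p = 0.13). Its PNx levels of 12.8, 8.48 and 7.32 CPM in replicates 1, 2 and 3 exceeded every Control library, while the other 3 lay within the Control range. Gm38342, which overlaps Ube2w on the other strand, split the PNx libraries in the same way. It was at 72.9 to 123 CPM in PNx replicates 1, 2 and 3 and at 15.4 to 19.6 CPM in the other 3. The part of this overlap in the Ube2w values was not tested. Ube2d3, a general partner of many E3 ligases, was at 25.4 to 57.4 CPM in Control (median 43.6) and at 24.9 to 179 CPM in PNx (median 76.9), a log2 fold change of 1.2 ± 0.46 (adjusted p = 0.15). Ube2d2b, a retrocopy of the Ube2d2a gene known from testis, was at 0 to 3.70 CPM in Control and at 9.69 to 16.1 CPM in PNx replicates 1, 2 and 3 but at 0.59 to 0.79 CPM in the other 3 PNx libraries. Without PNx replicates 1, 2 and 3 the log2 fold change was 0.23 for Ube2w and -0.37 for Ube2d3. Ube2d1, Ube2d2a, Ube2e2, Ube2e3, Ube2h and Ube2l3 had log2 fold changes of 0.39 to 1.21, none past an unadjusted p of 0.05, and Ube2e1 was at -0.58 ± 0.37.

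Of the 3 genes for K63-linked chains, which serve signalling and DNA repair rather than the proteasome, Ube2n and Ube2v2 form a pair in which Ube2n is the catalytic partner and Ube2v2 an inactive E2 variant. Ube2n was at 3.50 to 17.4 CPM in Control (median 10.7) and at 4.71 to 49.2 CPM in PNx (median 24.7), a log2 fold change of 1.14 ± 0.54 (adjusted p = 0.19). Ube2v2 was at 0 to 1.34 CPM in Control (median 0.46) and at 0.59 to 6.06 CPM in PNx (median 2.92), with all 6 PNx libraries above the Control mean and a log2 fold change of 2.32 ± 0.86 (adjusted p = 0.14). It had only 76 counts in all, with 1 count each in PNx replicates 4 and 5, which exceeded the Control mean by that read alone. Both were highest in PNx replicate 3, and the ranges of both overlapped those of Control. The other variant, Ube2v1, which pairs with Ube2n in NF-kB signalling, had 23 counts and a log2 fold change of 0.31 ± 0.87.

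The 6 genes of degradative K48-linked chains had a median log2 fold change of 0.68, with 4 higher and 2 lower. Ube2k was at 4.73 to 18.7 CPM in Control and at 9.50 to 23.97 CPM in PNx, above the Control mean in all 6, with a log2 fold change of 0.94 ± 0.42 (adjusted p = 0.17). Ube2q2 was at 18.3 to 39.5 CPM in Control and at 14.1 to 124 CPM in PNx (1.01 ± 0.49, adjusted p = 0.19), and Ube2g1 at 7.10 to 25.1 CPM and at 7.85 to 107 CPM (1.23 ± 0.71, adjusted p = 0.26). For these 2 genes, PNx replicates 1, 2 and 3 were above all Control libraries and the other 3 PNx libraries were not. Of the E2 genes that degrade proteins of the endoplasmic reticulum, Ube2j1 was at 1.78 to 16.7 CPM in Control and at 7.07 to 40.9 CPM in PNx (1.15 ± 0.55, adjusted p = 0.19), Ube2g2 was at 1.06 ± 0.62 and Ube2j2 at 0.49 ± 0.46 on the log2 scale.

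Ube2z was the 1 gene at an unadjusted p under 0.05 that was lower. It was at 47.9 to 64.2 CPM in Control (median 57.5) and at 2.71 to 55.8 CPM in PNx (median 17.8), with all 6 PNx libraries below the Control mean. The log2 fold change was -1.20 ± 0.54 (adjusted p = 0.17). The lowest were PNx replicates 1, 2 and 3 at 2.71, 6.46 and 11.1 CPM, and without them it was -0.44. Outside PNx, NaKtide replicate 6 at 8.40 CPM was also low. These 4 libraries, with PNx replicate 6, held epididymis sums of 19.4 to 574 CPM, below every other library. Ube2s was at 193 to 395 CPM in Control and at 60.6 to 364 CPM in PNx (-0.60 ± 0.40, adjusted p = 0.32), and again its lowest levels of 60.6, 115 and 95.4 CPM were in PNx replicates 1, 2 and 3. Among the carriers of other modifiers, Ube2m (-0.05 ± 0.32) had a small log2 fold change with the lowest error of the tested genes, and Ube2f (1.09 ± 0.66) and the ISG15 carrier Ube2l6 (1.09 ± 1.09, 30 counts) had larger ones with larger errors. Ube2o, a large enzyme that acts without a separate E3 ligase, was at 0.41 ± 0.48. Ube2u, known from testis, was at 0 to 3.70 CPM in Control and at 2.83 to 11.4 CPM in PNx replicates 1, 2 and 3, with 0 to 1.13 CPM in the other 3.

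**Figure D4:**
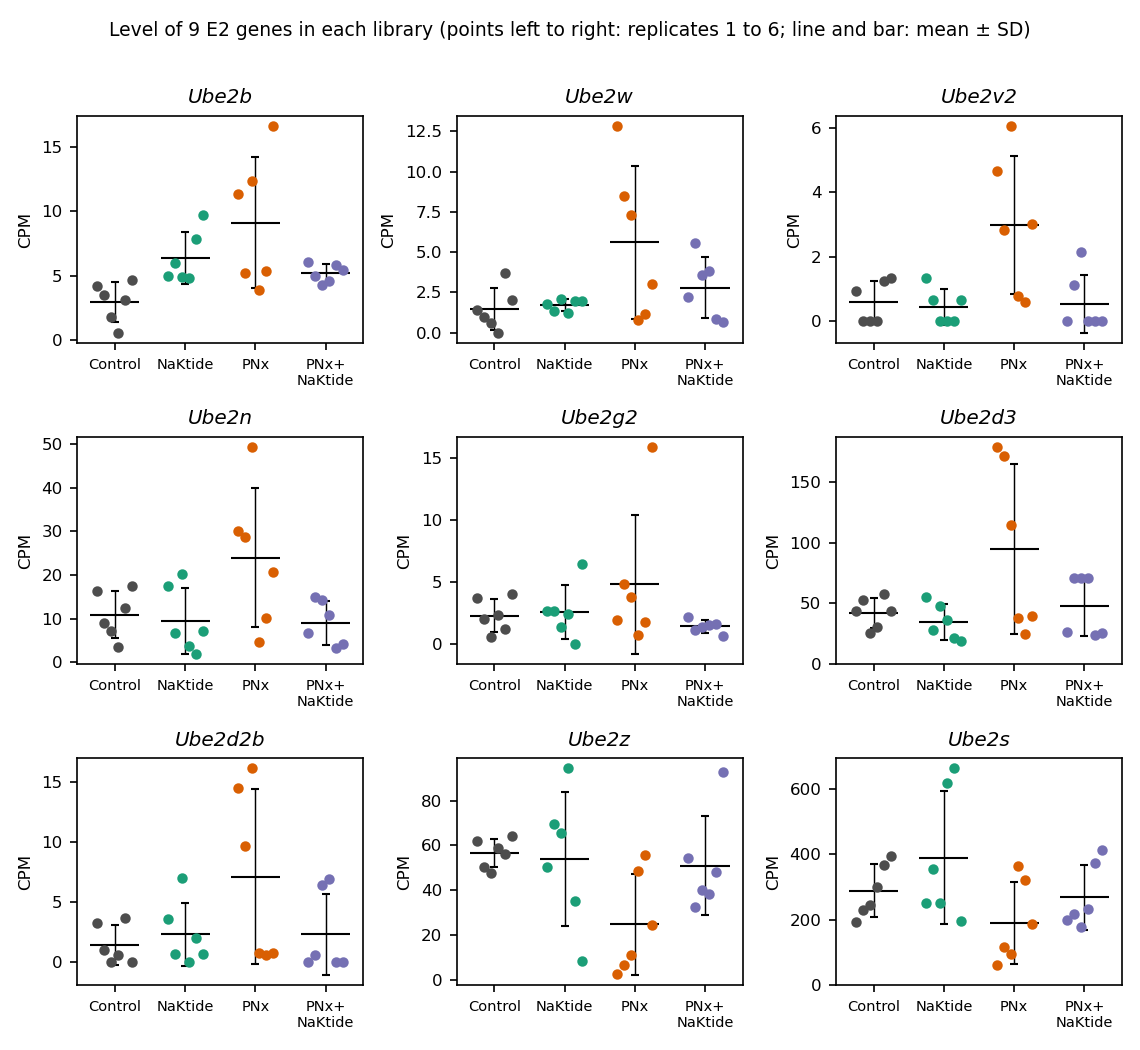
Level in CPM of 9 E2 genes in each library by group, with replicates 1 to 6 from left to right and the mean and SD of the 6 libraries. The PNx values split into high and low libraries for Ube2w, Ube2d3 and Ube2d2b, Ube2z is lowest in PNx replicates 1, 2 and 3 at 2.71 to 11.1 CPM, and Ube2b is above 4.68 CPM, the highest Control value, in 5 of 6 PNx libraries.

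The PNx libraries did not move as one group. Of the 35 tested genes, 15 had their highest level of all libraries in PNx replicate 6 (42.9%, against 18.1% of all genes tested), among them Ube2b, Ube2g2, Ube2h, Ube2l3 and Ube2r2. Ube2h, known from red blood cell maturation, was at 37.0 CPM there against 4.71 to 9.59 CPM in the other PNx libraries, and Ube2r2, a partner of cullin ligases, was at 43.4 CPM against 6.28 to 11.3 CPM. In the same library the 7 erythrocyte genes summed to 1628 CPM, against at most 245 CPM in any other, and the adipocyte sum was the highest of all. A further 12 genes had their highest level in PNx replicates 1, 2 or 3, namely 2, 3 and 7 of them (5.71%, 8.57% and 20%, against 9.63%, 13.5% and 9.07% of all genes), and none in PNx replicates 4 or 5. Ube2e2, Ube2h, Ube2l3, Ube2l6 and Ube2r2 turned from higher to lower in PNx when PNx replicate 6 was left out, and the E2 median was then 0.47. The median of all genes was 0.02 in that fit. Without PNx replicates 1, 2 and 3 the E2 median was 0.37, beside -0.05 for all genes, and 2 of 33 E2 genes had an unadjusted p under 0.05 (6.06%, against 11.1% of all genes). Without PNx replicate 6 and NaKtide replicate 6 it was 0.33, beside 0.02 for all genes, with 12 of 33 (36.4% against 34.4%).

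**Figure D5:**
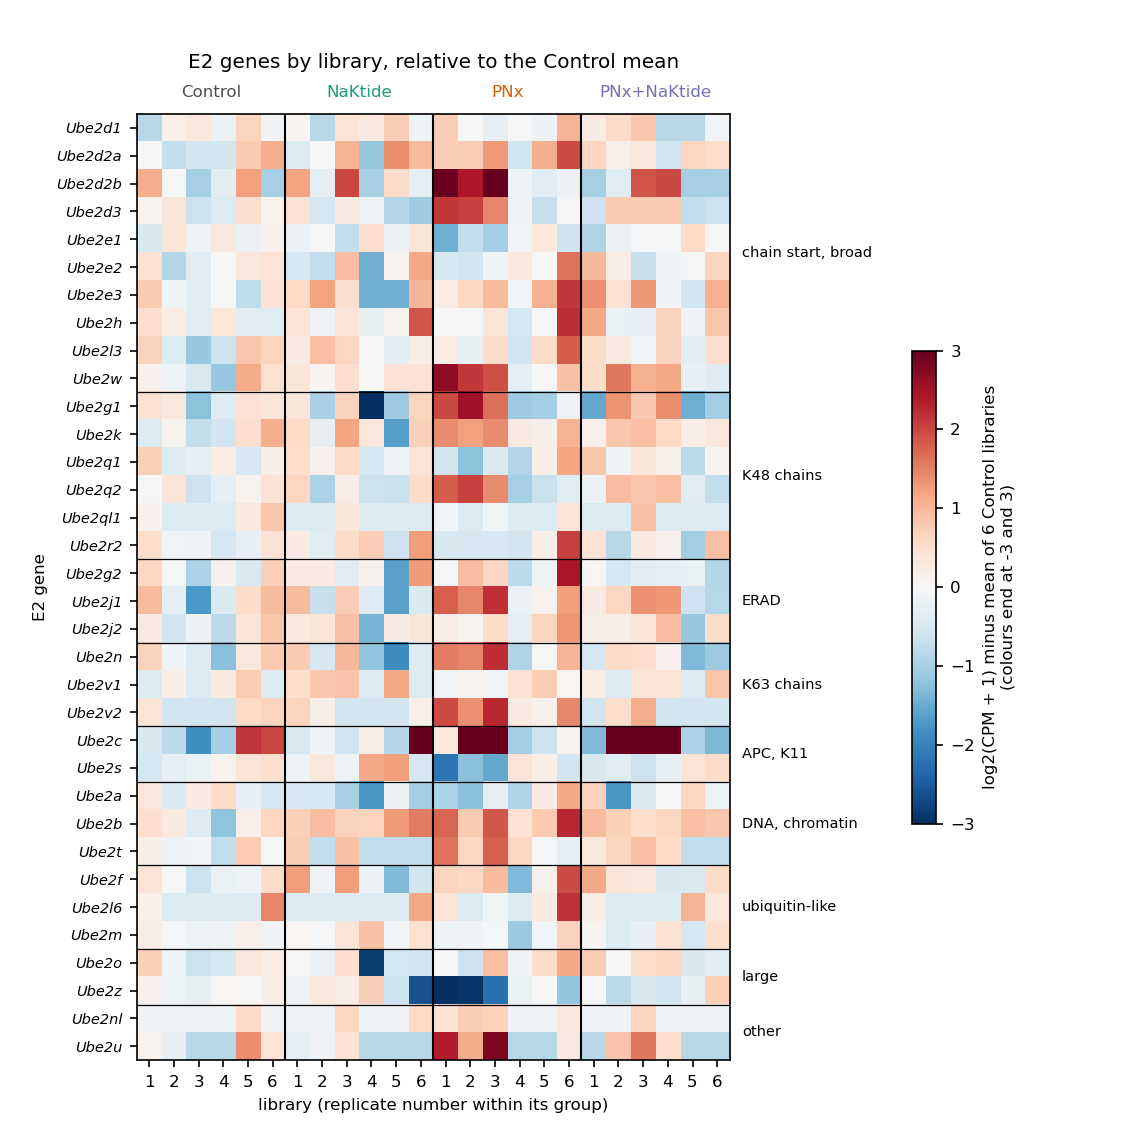
Level of 34 of the E2 genes tested in each library, as log2(CPM + 1) minus the mean of the 6 Control libraries, with genes grouped by role and colours ending at -3 and 3. Red in PNx replicates 1, 2 and 3 marks genes such as Ube2d2b, Ube2d3 and Ube2q2, red in PNx replicate 6 marks genes such as Ube2h, Ube2r2 and Ube2g2, and blue marks Ube2z, Ube2s and Ube2e1 in PNx replicates 1, 2 and 3.

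PNx+NaKtide was set against PNx to see what the peptide changes in renal failure, with the same PNx libraries as above. No E2 gene passed the adjusted p of 0.1 with edgeR, and neither did any other gene (0% of 26116). At an unadjusted p under 0.05 there were 4 E2 genes (11.4%, against 12.7% of all genes), all lower (11.4% against 8.6%), and none higher (against 4.07%). The median log2 fold change of the E2 genes was -0.35, beside -0.37 for all genes. Of the E2 genes, 9 were higher and 26 lower, where 36.2% of all genes were higher. With DESeq2 size factors 4 were higher and 31 lower, with medians of -0.70 for the E2 genes and -0.71 for all genes. No E2 gene had ranges that did not overlap, as 0.456% of all genes had. DESeq2 called 4 of 24 E2 genes, all lower (16.7%, against 9.63% of all genes), namely Ube2b, Ube2d3, Ube2g2 and Ube2n, and limma voom called 14 of 35 (40%, 4 higher and 10 lower, against 44%).

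Ube2v2 was at 0 to 2.14 CPM in PNx+NaKtide, with 4 of the 6 libraries at 0, against 0.59 to 6.06 CPM in PNx, a log2 fold change of -2.36 ± 0.89 (adjusted p = 0.36, edgeR). Its partner Ube2n was at 3.33 to 15.05 CPM in PNx+NaKtide (median 8.69), below the PNx mean of 23.9 CPM in all 6, with -1.41 ± 0.55 (adjusted p = 0.36). Ube2g2, which acts with the ligase gp78 on proteins of the endoplasmic reticulum, was at 0.68 to 2.21 CPM in PNx+NaKtide (median 1.48) and at 0.79 to 15.9 CPM in PNx (median 2.88), with -1.72 ± 0.66 (adjusted p = 0.36). The 15.9 CPM were those of PNx replicate 6, and without that library the value was -0.89. Ube2d3 was at 24.1 to 70.8 CPM in PNx+NaKtide, with 70.6 to 70.8 CPM in replicates 2, 3 and 4 and 24.1 to 26.0 CPM in the other 3 (-0.98 ± 0.46, adjusted p = 0.39). The same PNx+NaKtide replicates 2, 3 and 4 had germ cell sums of 764 to 1059 CPM, against 112 to 130 CPM in the others. Ube2q2 split the same libraries into 52.1 to 55.7 CPM and 17.0 to 25.5 CPM, and Ube2c into 378 to 434 CPM and 5.43 to 7.49 CPM.

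Ube2z was higher in PNx+NaKtide, at 32.3 to 93.0 CPM (median 44.1) with all 6 libraries above the PNx mean of 24.9 CPM, and a log2 fold change of 1.05 ± 0.54 (adjusted p = 0.41). Without PNx replicates 1, 2 and 3 it was 0.28. Ube2b was lower in all 6 libraries than the PNx mean of 9.14 CPM, with -0.82 ± 0.43 (adjusted p = 0.41), and Ube2w was at -1.02 ± 0.63 (adjusted p = 0.45). Of the 33 E2 genes that could be tested without PNx replicates 1, 2 and 3, 13 changed sign in this comparison. The share of all genes that did so was not computed. The median of all genes moved from -0.37 to -0.01, so these changes cannot be read as particular to the E2 genes.

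In sham-operated mice, NaKtide was compared with Control to show the effect of the peptide alone. No E2 gene and no gene at all (0%) passed the adjusted p of 0.1 with edgeR, and DESeq2 and limma voom called no E2 gene. At an unadjusted p under 0.05 there were 2 E2 genes (5.71%, against 3.95% of all genes), Ube2c and Ube2b, both higher. For Ube2c the log2 fold change of 6.71 ± 2.01 (adjusted p = 0.81) was that of NaKtide replicate 6, and without it the value was -1.17. Ube2b was above the Control mean in all 6 NaKtide libraries and above the highest Control library in all 6, with a log2 fold change of 1.07 ± 0.46 (adjusted p = 1). It was the 1 E2 gene whose NaKtide and Control ranges did not overlap (2.86%, against 0.314% of all genes). The gap was narrow and rested on few reads. The lowest NaKtide value was 4.84 CPM in replicate 4, from 4 counts. The highest Control value was 4.68 CPM in replicate 6, from 7 counts. The median over the E2 genes was 0.19, beside 0 for all genes.

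PNx+NaKtide was compared with NaKtide to show the effect of nephrectomy in the presence of the peptide. No E2 gene and no gene at all (0%) passed the adjusted p of 0.1 with edgeR, and DESeq2 and limma voom called no E2 gene. Ube2c was the 1 E2 gene at an unadjusted p under 0.05 (2.86%, against 4.09% of all genes), with -3.83 ± 1.75 (adjusted p = 1), and it turned to 4.05 without NaKtide replicate 6. No E2 gene had ranges that did not overlap, as 0.0881% of all genes had. The median of the E2 genes was -0.02, beside 0.04 for all genes.

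The interaction of nephrectomy and NaKtide tests whether the effect of nephrectomy differed with the peptide. No E2 gene passed the adjusted p of 0.1 with edgeR, nor did any gene (0%). At an unadjusted p under 0.05 there were 3 E2 genes (8.57%, against 9.27% of all genes), Ube2b, Ube2c and Ube2g2, and all 3 differences were negative. That of Ube2c was -5.22 ± 2.35 and that of Ube2g2 -1.98 ± 0.93 (adjusted p = 0.52 and 0.53). The count depended on single libraries. It was 1 of 35 without NaKtide replicate 6 (2.86%, against 7.13% of all genes). Without PNx replicate 6 it was 4 of 34 (11.8% against 8.53%). Ube2b had the lowest p, with a difference of log2 fold changes of -1.89 ± 0.63 (adjusted p = 0.48): nephrectomy went with 1.62 ± 0.44 in GFP mice and with -0.28 ± 0.45 in NaKtide mice. The median over the E2 genes was -0.70, beside -0.35 for all genes. DESeq2 called 1 of 26 E2 genes, Ube2b, against 0.58% of all genes, and limma voom called 7 of 35 (20%, against 25.5%).

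Other genes of the relay were counted in the same way, in a test that called 0.0766% of all genes in PNx against Control and 0% in the other 4 contrasts. Of 12 ubiquitin and ubiquitin-like protein genes, 10 E1 enzymes, 9 E2 genes of other names and 34 ligases known to work with named E2 enzymes, none passed the adjusted p of 0.1 in any of the 5 contrasts with edgeR. In PNx against Control, 1 ubiquitin-like gene, 1 E1 gene, none of the other E2 genes and 6 ligases were higher at an unadjusted p under 0.05, and 1 ligase was lower, where 18.5% of all genes were higher and 6.88% lower. The median log2 fold changes of these lists were 0.30, 0.43, 0.61 and 0.80, beside 0.36 for all genes. The lowest p was that of Shprh, a ligase that acts with Ube2n and the E2 variants on PCNA, with 2.5 ± 0.75 (adjusted p = 0.13), at 0.58 to 6.69 CPM in Control and at 3.56 to 44.6 CPM in PNx. Its exons overlap those of Gm16577.

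In PNx+NaKtide against PNx, 5 ligases and 1 E1 gene were lower and 1 ligase was higher at an unadjusted p under 0.05, where 8.6% of all genes were lower and 4.07% higher, with medians of -0.05, -0.19, -0.30 and -0.73 for the 4 lists in the same order, beside -0.37 for all genes. The lowest p were those of March6, a ligase of the endoplasmic reticulum, with -1.59 ± 0.67 (adjusted p = 0.36), and of Rad18, the ligase that acts with Ube2a and Ube2b on PCNA, with -1.26 ± 0.53 (adjusted p = 0.36). Rad18 was at 5.35 to 22.6 CPM in PNx and at 2.495 to 8.92 CPM in PNx+NaKtide, and the ranges overlapped.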

How the data were processed

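Adipose RNA of 24 mice was sequenced as single libraries, 1 per mouse. Per the labels and the study's methods, the authors trimmed reads with Trimmomatic (version 0.38), aligned them to GRCm38 with HISAT2 (version 2.1.0) and counted them per gene with GenomicAlignments, and the deposited table holds raw counts. The authors also deposited FPKM values, used here only for levels per length and for 2 alternatives on the log2 scale. The sources used here do not give the strand setting or annotation release of the counting. Gene names came from GENCODE M21, which matched 54165 of 54232 identifiers.

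Genes with more than 10 counts in all were tested with edgeR's quasi-likelihood test (version 4.0.16, R 4.3.3) after TMM scaling, on 4 group means and 5 contrasts, with Benjamini-Hochberg adjustment over all 26116 genes and a threshold of 0.1. CPM are TMM-scaled, and SE was taken as the absolute log2 fold change over the root of the F statistic. DESeq2 (version 1.42.0) and limma voom (version 3.58.1), other scalings and filters, and left-out libraries were alternatives. The test was tested on simulated data without differences of tissue content between the libraries of a group. This does not show how it performs on the libraries used here. Given in full were the 3 genes of lowest p with more than 50 counts in each of the first 2 contrasts, the 1 of lowest p in the others and the 3 of highest mean FPKM. Other members were chosen after their values were seen. The members and lists were chosen with earlier results of these data known. Lists of ubiquitin-like genes, E1 enzymes, other E2 genes, ligases and cell type markers came from general knowledge. The smallest chi-square between replicates was 1.57 per degree of freedom, so no pair was counted as 1 library. P-values measure the spread between mice. Results for some genes are not reported here.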

Additional observations from a re-analysis of the deposited data

Results flagged for a closer look

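Ube2c in NaKtide replicate 6 was at 17188 CPM, while the other 5 NaKtide libraries were at 7.87 to 18.2 CPM. The gap to the nearest library made up 0.898 of the range of the group on the log2(CPM + 1) scale, above Dixon's critical value at the 95% level for 6 samples. It was the 1 such library among 32 groups of 6 that were examined, where chance gives about 1 in 20 for genes not picked by their values. Ube2c was picked by p and by mean FPKM, to which this library contributed, so that rate does not apply to it. The skeletal muscle sum of the same library was 5664 CPM, and the part of that tissue and of the Tnnc2 overlap in the Ube2c level was not tested.

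Ube2b was singled out because the libraries lay on opposite sides of the means of their sham groups in the GFP and the NaKtide mice. The log2 ratio of the group means was 1.62 for PNx over Control, with all 6 PNx libraries above the Control mean, and all 6 PNx+NaKtide libraries were below the NaKtide mean, which includes NaKtide replicate 6 at 9.70 CPM. In NaKtide mice the log2 fold change was -0.28 ± 0.45 (adjusted p = 1, edgeR), or -0.099 without that library, so no direction was resolved there. The interaction of -1.89 ± 0.63 had an adjusted p of 0.48 with edgeR, which did not pass.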

How the results depend on the processing

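In PNx against Control the count of E2 genes called was 0 with edgeR, and 16 of 35 with DESeq2 size factors (45.7%, against 33.3% of all genes), 6 of 35 with library size scaling (17.1% against 15.7%), 7 of 20 with filterByExpr (35% against 17.9%), 20 of 32 with DESeq2 (62.5% against 34.9%), 20 of 35 with limma voom (57.1% against 63.8%), 1 of 35 with limma on log2(FPKM + 1) (2.86% against 0.153%) and 6 of 33 without PNx replicate 6 and NaKtide replicate 6 (18.2% against 21.8%). Leaving out 1 library gave 0 to 14. In PNx+NaKtide against PNx it was 4 with DESeq2 (16.7% against 9.63%) and 14 with limma voom (40% against 44%), and for the interaction 1 (3.85% against 0.58%) and 7 (20% against 25.5%). The cause was not tested. NaKtide against Control and PNx+NaKtide against NaKtide gave 0 under every alternative run. Without PNx replicates 1, 2 and 3 the log2 fold change turned to -1.31 for Ube2c in PNx against Control, and to 0.69 for Ube2w and -0.077 for Ube2s in PNx+NaKtide against PNx. For Ube2c in NaKtide against Control it was -1.17 without NaKtide replicate 6, alone or with PNx replicate 6, and leaving out 1 library gave -1.17 to 7.26. In PNx+NaKtide against NaKtide the Ube2c value turned to 2.63 with limma voom, 0.34 with limma on log2(FPKM + 1) or log2(FPKM + 0.1), and 4.05 without NaKtide replicate 6, alone or with PNx replicate 6, and leaving out 1 library gave -4.43 to 4.05. With the replicate number as a block it was 1.86, and 0 E2 genes were called, as without the block. Deviations of same-numbered libraries correlated at -0.59 to 0.71. These were not set beside those of differently numbered libraries, so whether a replicate number stands for a pairing or batch was not settled. The fit on the compared groups only was not run for the interaction. The median E2 gene tested had 295 counts in all, and the part of depth in these counts of calls was not tested.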
